A study of Homo sapiens with 4 samples.

Results

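The kallikrein-related peptidases of the epidermis, KLK5 to KLK14, are 10 of the 19233 protein-coding genes in the files, which list 44591 genes in all. They were taken by symbol, and each symbol had exactly 1 entry. RNA-seq had been performed on 4 biological replicates of HaCaT, an immortalized human epidermal keratinocyte line, cultured in Dulbecco's modified Eagle medium with fetal bovine serum and left untreated. All 4 libraries belong to this single condition, so there is no treated or control group and no comparison between conditions. The level of a gene is given in TPM over protein-coding genes, that is, reads per gene length scaled to a sum of 1000000 per library over the protein-coding genes only, as mean ± SD over the 4 replicates.

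Kallikrein-related peptidases are secreted serine proteases that are made as inactive zymogens and become active when a short propeptide is removed. In the upper epidermis they form a cascade: KLK5 can activate itself and then KLK7 and KLK14, and the active enzymes cut the proteins that hold corneocytes together, so that the outermost cells are shed. LEKTI, the multidomain inhibitor encoded by SPINK5, restrains them, and its loss causes Netherton syndrome. Most members cut after arginine or lysine like trypsin, while KLK7 and KLK9 cut like chymotrypsin.

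The 10 genes lie side by side on chromosome 19 from 51446559 to 51587467 (hg19, the build in the submitters' processing notes), a span of 140.9 kb. All 10 are on the minus strand. The shortest gap between neighbours is the 810 bp between KLK8 and KLK9, and the longest is the 20734 bp between KLK12 and KLK13. KLK5 (51446559 to 51456344) and KLK14 (51580752 to 51587467) are at the ends, and KLK10 lies from 51516000 to 51523431. RefSeq promoters (GRCh38.p14) were found for 9 of the 10 genes, with 16 start sites. The 250 bases before the first listed start are shown for the members with the highest mean levels (KLK5 and KLK10), the one whose replicates differed most (KLK14) and the lowest one (KLK12). They are written 5′ to 3′ on the minus strand, with a TATAA in the last 50 bases or a GGGCGG on either strand in capitals.
KLK5, chr19:50953039-50953288: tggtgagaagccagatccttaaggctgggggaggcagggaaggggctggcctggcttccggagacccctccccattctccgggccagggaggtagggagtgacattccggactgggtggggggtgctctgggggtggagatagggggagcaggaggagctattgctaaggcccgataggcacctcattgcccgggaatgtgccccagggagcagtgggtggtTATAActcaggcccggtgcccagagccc
KLK10, chr19:51019862-51020111: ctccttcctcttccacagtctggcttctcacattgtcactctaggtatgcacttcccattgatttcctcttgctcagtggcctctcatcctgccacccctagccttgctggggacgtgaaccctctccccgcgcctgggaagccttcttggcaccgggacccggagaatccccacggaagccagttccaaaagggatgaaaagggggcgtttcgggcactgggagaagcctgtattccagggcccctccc
KLK14, chr19:51082857-51083106: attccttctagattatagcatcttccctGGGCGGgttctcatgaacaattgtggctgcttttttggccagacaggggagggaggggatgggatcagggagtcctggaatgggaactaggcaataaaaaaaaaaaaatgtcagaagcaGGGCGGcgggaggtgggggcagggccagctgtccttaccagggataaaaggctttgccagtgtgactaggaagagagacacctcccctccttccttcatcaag
KLK12, chr19:51035003-51035252: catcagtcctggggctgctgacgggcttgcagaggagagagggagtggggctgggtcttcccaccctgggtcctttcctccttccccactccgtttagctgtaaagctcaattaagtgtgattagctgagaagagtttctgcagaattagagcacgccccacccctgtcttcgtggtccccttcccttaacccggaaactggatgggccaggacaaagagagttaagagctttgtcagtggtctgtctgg

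Short sequence motifs were looked for before all 16 start sites. TATAA, the core of a TATA box, was searched on the gene's own strand in the 50 bases before the start. It was present for KLK5, where it begins 28 bases before the start, and for the first of the 3 starts of KLK7, where it begins 27 bases before it. It was found before 4.74% of 35116 human starts. GGGCGG, the core of an Sp1 motif, was searched on both strands of the 250 bases and was present before 10 of the 16 starts, in KLK6, KLK7, KLK9, KLK11, KLK13 and KLK14, against 42.6% of all starts. TGANTCA, the core of an AP-1 motif, which reads the same on both strands, was present before 0 of the 16 starts and 6.57% of all starts. The median number of CG dinucleotides was 7.5 before the starts of the members and 11 before all starts. These matches describe letters in the windows searched and say nothing about binding.

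KLK5 and KLK10 had the highest levels of the family, KLK8 followed, and KLK12 was near the limit of detection. Of the 10 members, 9 had a mean TPM above 1, the level taken as detected, as did 63.3% of all protein-coding genes. The median of the 10 means was 15.7 TPM, against 7.21 TPM over all protein-coding genes. The 10 levels summed to 496, 1175, 573 and 713 TPM over the replicates in turn, with a mean of 739 ± 304 (SD, n = 4). KLK5, KLK10 and KLK8 together took 83.6%, 88.5%, 92.6% and 90.04% of this sum. The other members shared the small rest.

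**Figure D1:**
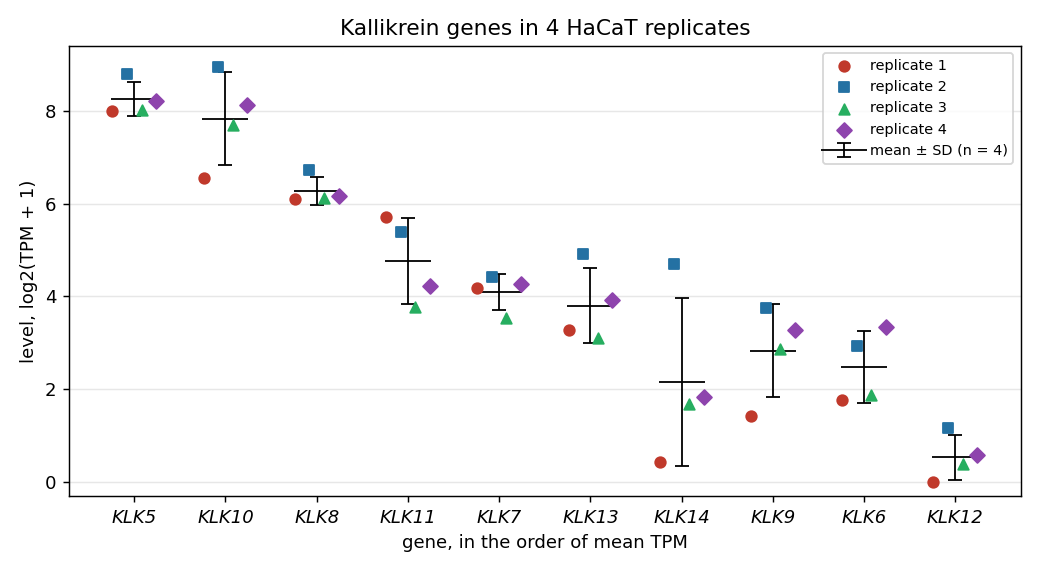
Level of the 10 kallikrein genes on the log2(TPM + 1) scale (vertical axis), in the order of mean TPM (horizontal axis). Points are the 4 HaCaT replicates and black lines the mean ± SD; KLK5 and KLK10 are at the left, replicate 2 is the highest point for 8 of the 10 genes, and KLK12 lies at the bottom.

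KLK5, the trypsin-like enzyme that starts the cascade, had 255, 442, 257 and 294 TPM in replicates 1 to 4, from 9670, 4592, 3614 and 3429 counts. Its mean was 312 ± 88.5 TPM (SD, n = 4), at percentile 97.7 of all protein-coding genes. Replicate 2 was the highest and the other replicates lay close together. KLK10, first described as a gene of normal epithelial cells that is lost in breast cancer lines, had 92.05, 492, 205 and 277 TPM, from 7350, 10747, 6057 and 6781 counts. Its mean was 267 ± 168 TPM (SD, n = 4), at percentile 97.2. Its highest level, in replicate 2, was 5.34 times its lowest, in replicate 1. KLK5 exceeded KLK10 in 3 of 4 replicates and their ranges overlapped. On the log2(TPM + 1) scale KLK5 exceeded KLK10 by 0.43 ± 0.71 (SD, n = 4; exact two-sided permutation test by sign flips, p = 0.375), which is less than the spread between replicates. The order of the means rests on the gene length, 1563 bp for KLK5 and 3286 bp for KLK10 in the files: in counts scaled by the library total alone (to 1000000), without length correction, KLK10 had 371 ± 219 and KLK5 209 ± 49.9 (SD, n = 4), and the difference on the log2 scale was -0.64.

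KLK8, a trypsin-like protease also known as neuropsin, had 68.0, 105, 68.0 and 70.3 TPM in replicates 1 to 4 and a mean of 77.9 ± 18.3 (SD, n = 4). Replicate 2 lay apart and the other 3 replicates were almost equal. KLK8 was the third member in every replicate. KLK7, the chymotrypsin-like enzyme of the stratum corneum, had 17.0, 20.3, 10.6 and 18.4 TPM, a mean of 16.6 ± 4.18 (SD, n = 4) from 204 to 884 counts. It stood at percentile 61.2 of all protein-coding genes, far below its activator KLK5. KLK14, the other protease that is strongly active in the stratum corneum, had 0.353, 25.1, 2.23 and 2.56 TPM, from 9, 175, 21 and 20 counts. Its level in replicate 2 was 9.81 times the next highest, and its mean of 7.57 ± 11.7 TPM (SD, n = 4) fell to 1.71 without that replicate.

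KLK11, a trypsin-like member, had 51.2, 40.8, 12.6 and 17.6 TPM and a mean of 30.6 ± 18.4 (SD, n = 4). It was the only member with its highest level in replicate 1, and replicates 1 and 2 lay above replicates 3 and 4. KLK13, another trypsin-like member, had 8.76, 28.98, 7.62 and 14.1 TPM and a mean of 14.9 ± 9.82 (SD, n = 4). Its deposited length of 2481 bp is longer than its longest protein-coding transcript in GENCODE release 29, which has 927 bp. With the longest protein-coding transcript as the length of each gene, its mean was 46.2 TPM, above KLK7 at 21.5 and KLK11 at 40.0. KLK9, a chymotrypsin-like member, had 1.69, 12.6, 6.34 and 8.68 TPM and a mean of 7.32 ± 4.54 (SD, n = 4), with 59 to 120 counts. With its longest protein-coding transcript, 754 bp in place of 1438 bp, the mean was 16.3 TPM. GENCODE release 29 lists a further protein-coding gene, AC011473.4, that spans both KLK8 and KLK9, and the files do not list it under that name, so reads of a transcript that joins them may be counted on either.

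KLK6, also known as neurosin, had 2.39, 6.60, 2.71 and 9.15 TPM and a mean of 5.21 ± 3.25 (SD, n = 4). It was the only member with its highest level in replicate 4. KLK12, a trypsin-like member, had 0, 9, 3 and 4 counts in replicates 1 to 4, or 0, 1.26, 0.311 and 0.50 TPM. A count of 0 in replicate 1 allows a level of up to 0.115 TPM (3 counts), and only replicates 2 and 4 were above 3 counts. KLK12 was the lowest member in all 4 replicates.

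The order of the members was mostly shared by the replicates: of 45 pairs of members, 38 stood in the same order in all 4. Among the 9 pairs of neighbours in the order of mean TPM, the higher gene exceeded the lower one in 4 of 4 replicates for 4 pairs. The differences on the log2(TPM + 1) scale were 1.55 ± 0.79 (KLK10 over KLK8), 1.51 ± 0.84 (KLK8 over KLK11), 1.64 ± 1.12 (KLK13 over KLK14) and 1.94 ± 0.56 (KLK6 over KLK12) (SD, n = 4). Each had p = 0.13 in the exact two-sided permutation test by sign flips, the smallest p that 4 replicates allow, and p = 0.281 after Benjamini-Hochberg adjustment over the 9 pairs. The ranges of the 4 replicates did not overlap for KLK8 and KLK11 and for KLK6 and KLK12. KLK11 and KLK7 (0.67 ± 0.72), KLK7 and KLK13 (0.30 ± 0.58) and KLK9 and KLK6 (0.35 ± 0.65) did not differ beyond their spread (SD, n = 4). KLK14 stood above KLK9 by mean TPM because of replicate 2, and below it in the other 3 replicates, so that the mean difference of log2(TPM + 1) was -0.67 ± 1.09 (SD, n = 4; exact sign-flip permutation test, p = 0.250).

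**Figure D2:**
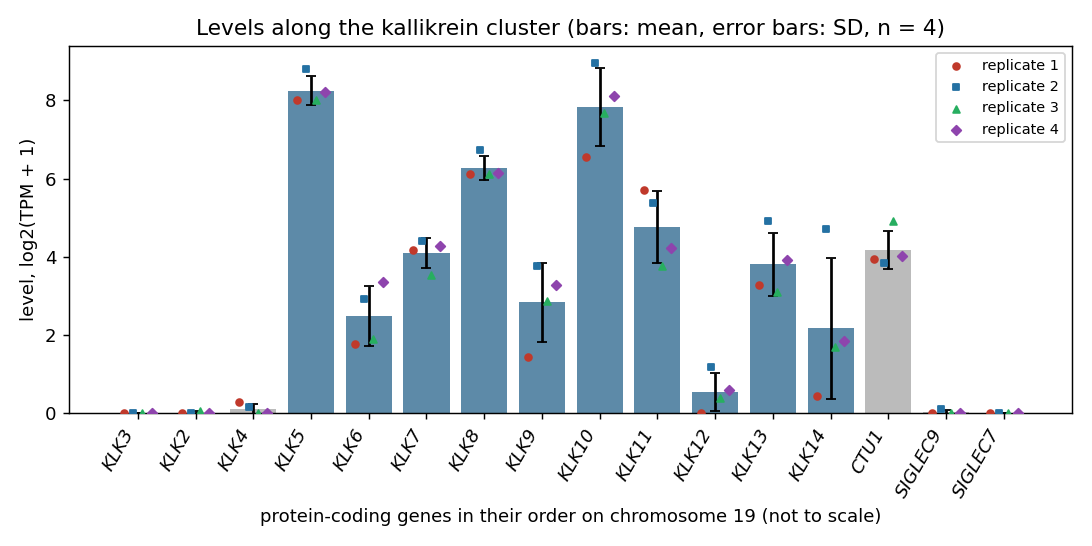
Level on the log2(TPM + 1) scale (vertical axis) of the protein-coding genes from 100 kb before to 100 kb after the 10 members, in their order on chromosome 19 (horizontal axis). Bars are means, error bars SD and points the 4 replicates; members are blue, other genes grey, and the highest members, KLK5, KLK10 and KLK8, are not next to each other, while KLK2, KLK3, KLK4, SIGLEC7 and SIGLEC9 lie at or near 0.

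Levels did not follow position in the cluster. KLK9 (7.32 TPM) lies between KLK8 (77.9 TPM) and KLK10 (267 TPM), and KLK12 (0.518 TPM) lies between KLK11 (30.6 TPM) and KLK13 (14.9 TPM). KLK4, the neighbour of KLK5 outside the set, had 7, 1, 0 and 0 counts. Of the 6 other kallikrein genes listed, only KLK1, the tissue kallikrein, had a mean TPM above 1, with 0.658, 3.43, 0.889 and 4.75 TPM. That limit was passed by 63.3% of all protein-coding genes. KLK3 (prostate-specific antigen) and KLKB1 (plasma kallikrein) had 0 counts in all 4 replicates, and KLK2 and KLK15 had 1 count in all. On the other side of the cluster, CTU1, a tRNA-modifying enzyme gene, had a mean of 18.0 TPM.

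Antisense genes on the plus strand overlap 7 of the members in the files. Their counts were 11 to 62 for ENSG00000269495.1 (over KLK5 and KLK6), 1 to 9 for ENSG00000267879.1 (over KLK6 to KLK9), 3 to 13 for ENSG00000268739.1 (over KLK10) and 0 to 8 for ENSG00000268906.1 (over KLK12). They are small beside the counts of KLK5, KLK7, KLK8 and KLK10, and of the same order as those of KLK12. ENSG00000269495.1 had 11, 62, 21 and 20 counts in replicates 1 to 4, against 110, 83, 46 and 129 of KLK6 itself. Whether the counting used strand is not given in the sources used here, so reads of KLK6 or KLK12 and of their antisense genes cannot be told apart.

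The replicates differed in the level of the family. Replicate 2 was the highest for 7 of the 9 detected members, against 23.3% of the 12165 protein-coding genes with a mean TPM above 1. Replicate 1 was the lowest for 6 of the 9, against 37.5%. The highest level was over 4 times the lowest for 4 of the 9 (KLK9, KLK10, KLK11 and KLK14), against 26.4%. Dixon's test for an outlying value was run on TPM, not on log2(TPM + 1), where high values lie closer together. In it 1 replicate exceeded the 95% limit for KLK8 and KLK14, replicate 2 in both cases, which is 2 of the 9 members against 9.82% of genes. The median SD of log2(TPM + 1) was 0.81 over the 9 members and 0.52 over the 12165 genes. The members lie in 1 cluster and were measured in the same 4 libraries, so these counts are not 9 independent observations.

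**Figure D3:**
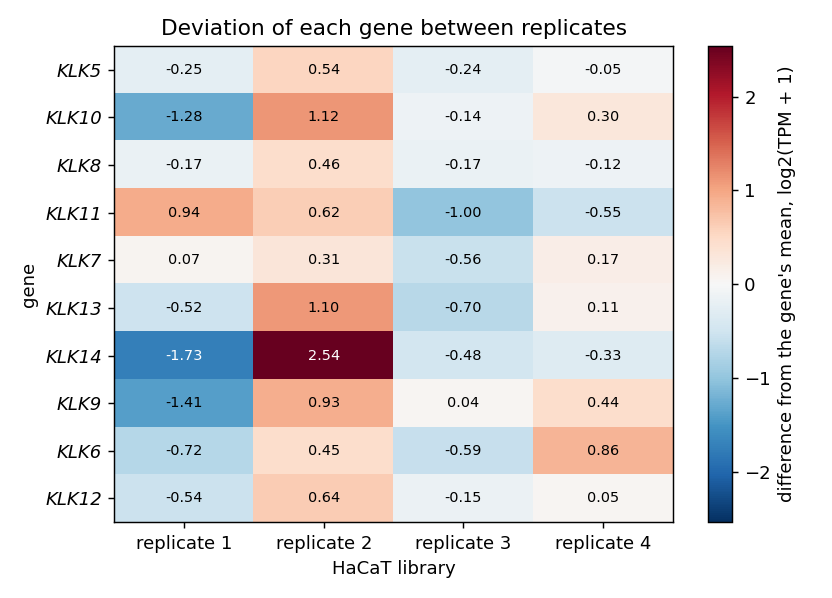
Deviation of each gene (rows) in each of the 4 HaCaT libraries (columns) from its own mean, on the log2(TPM + 1) scale (colour and printed value). Replicate 2 is above the mean for all 10 genes, from 0.31 for KLK7 to 2.54 for KLK14, and replicate 1 is below it for 8, with KLK11 (0.94) and KLK7 (0.07) above.

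The libraries were not alike in technical respects. Replicate 1 held 73082279 counts, replicates 2 to 4 held 17056035 to 19745170 each, and protein-coding genes took 76.1% of the counts in replicate 1 and 95.3% to 96.4% in the others. Replicate 1 gave lower values for genes of high GC content: over 11889 genes, its log2 level less the average of replicates 2 to 4 had a Spearman correlation of -0.51 with GC content. Genes are not independent of each other, so no p is given. The 10 members had a GC content from 48.9% (KLK7) to 63.0% (KLK14) in their longest protein-coding transcript, with a median of 57.7% against 49.1% over the 11889 genes. KLK14, the member with the most GC, and KLK7, the one with the least, deviated by -1.73 and 0.07 from their means in replicate 1. Members near the median differed among themselves: KLK11 (56.5% GC) deviated by 0.94, KLK8 (57.6%) by -0.17 and KLK6 (56.6%) by -0.72, and KLK10, at 54.6%, deviated by -1.28. The part of GC content in the low values of replicate 1 was not tested.

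Ratios within a library do not depend on its scaling. KLK8 had 0.267 times the reads per kilobase of KLK5 in replicate 1, with an exact (Clopper-Pearson) 95% interval of 0.254 to 0.280. Replicate 2 gave 0.238 (0.221 to 0.257), replicate 3 gave 0.264 (0.244 to 0.287) and replicate 4 gave 0.239 (0.218 to 0.260). All these intervals overlap, which does not show that the ratios are equal. The ratio of KLK8 to KLK5 lay between 0.238 and 0.267 while both levels moved. KLK10 had 0.362 times the reads per kilobase of KLK5 in replicate 1 (0.351 to 0.373). Replicate 2 gave 1.11 (1.08 to 1.15), replicate 3 gave 0.797 (0.765 to 0.831) and replicate 4 gave 0.941 (0.903 to 0.980), and none of these intervals overlap. For KLK7 the ratio to KLK5 was 0.0669, 0.0459, 0.0413 and 0.0623 in replicates 1 to 4, and for KLK11 it was 0.201, 0.0923, 0.0490 and 0.0599. KLK14 had 0.00139 (0.000635 to 0.00264) times the reads per kilobase of KLK5 in replicate 1 and 0.0568 (0.0486 to 0.0661) in replicate 2. PCR copies cannot be told from independent molecules in these counts, so the intervals cover counting error alone.

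**Figure D4:**
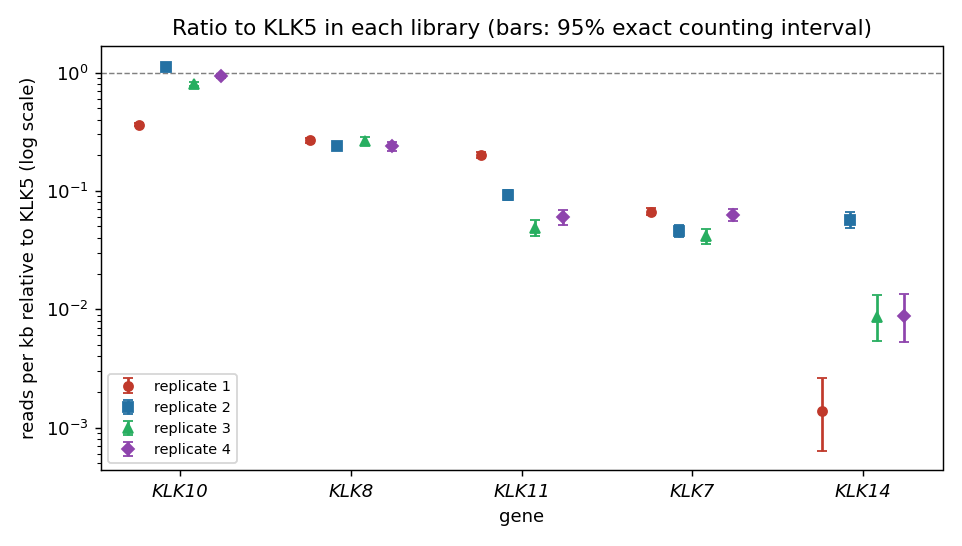
Reads per kilobase relative to KLK5 (vertical axis, log scale) for 5 members (horizontal axis) in each of the 4 libraries, with 95% exact counting intervals as bars. The 4 points of KLK8 lie between 0.238 and 0.267, those of KLK10 range from 0.362 to 1.11, and KLK14 spans the widest range.

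For KLK5 and KLK10 the genes with the most similar pattern over the 4 replicates were looked up among the other 12164 protein-coding genes with a mean TPM above 1. The measure was the root mean square difference of log2(TPM + 1) after each gene was centred on its mean. The 3 nearest to KLK5 were RGS14 (0.028), USP43 (0.036) and GPCPD1 (0.052). The 3 nearest to KLK10 were RNF32 (0.064), FOXK1 (0.072) and FOLR3 (0.075). No other member was among them, and 4 replicates are few for such a likeness.

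The genes that act with the kallikreins were then examined. Of 14 kallikrein inhibitors, 5 had a mean TPM above 1, against 63.3% of all protein-coding genes. The median of the 14 means was 0.248 TPM against 7.21 over all protein-coding genes. SPINK5, which encodes LEKTI, had 42.9, 4.16, 1.48 and 3.99 TPM over the replicates in turn, and its level in replicate 1 was 10.3 times the next highest. KLK5 had 5.93 times the reads per kilobase of SPINK5 in replicate 1 (exact 95% interval 5.72 to 6.16), and replicates 2, 3 and 4 gave 106 (87.6 to 130), 174 (132 to 234) and 73.7 (61.2 to 89.7). Replicate 1 thus had the lowest ratio of protease to LEKTI transcripts. SPINK6 and SPINK9, smaller inhibitors of the same kind, had at most 6 counts in any library, and SERPINA12 (vaspin, an inhibitor of KLK7) had 0 in all. SLPI had 171, 53.3, 78.2 and 38.1 TPM and PI3 (elafin) 21.8, 36.9, 27.7 and 6.06 TPM. SPINT1 and SPINT2, best known as inhibitors of matriptase, were the most abundant, at 342 ± 168 and 325 ± 23.2 TPM (SD, n = 4).

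Of 15 activators and other proteases of desquamation found in the files, 8 had a mean TPM above 1, against 63.3% of all protein-coding genes. The median of the 15 means was 28.6 TPM, against 7.21 over all protein-coding genes. ST14, which encodes matriptase, a membrane protease that can activate kallikrein zymogens, had 242, 474, 451 and 481 TPM, with replicate 1 below the others. PRSS8 (prostasin) had 95.3 ± 33.3, PRSS3 (mesotrypsin) 28.7 ± 9.87 and PLAU (urokinase) 175 ± 60.02 TPM (SD, n = 4). The cathepsin gene CTSD had 1531 ± 469 TPM (SD, n = 4), and CTSV had 58.0 TPM in replicate 1 and 16.5 to 21.2 in the others. CASP14 and ASPRV1, proteases of cornifying cells, had 100 and 103 counts in replicate 1, the largest library, and at most 9 in the others. In TPM, CASP14 had 1.31 there against 0 to 0.0854, and ASPRV1 1.95 against 0.0511 to 0.555. Both means were below 1.

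Among 12 substrates and receptors, 9 had a mean TPM above 1, against 63.3% of all protein-coding genes. The median of the 12 means was 33.9 TPM, against 7.21 over all protein-coding genes. The proteins of corneodesmosomes, which the kallikreins cut during desquamation, were low: CDSN had 0.112, 1.11, 0.818 and 0.572 TPM, and DSC1 had 107, 0, 1 and 3 counts. DSG1 had 2107 counts in replicate 1, or 11.9 TPM, and 0 counts in replicates 2 to 4, which allows at most 0.0621 TPM there (3 counts). The desmosomal cadherins of lower layers were higher. DSG3 had 578 TPM in replicate 1 and 39.9 to 139 in the others, DSC3 had 327 and 33.3 to 98.9, and DSG2 had 156 ± 57.7 TPM (SD, n = 4). F2RL1, which encodes PAR2, a receptor that KLK5 and KLK14 can cleave, had 42.4, 101, 81.5 and 56.0 TPM. CAMP, the cathelicidin precursor processed by KLK5 and KLK7, had 0 counts in all 4 replicates.

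**Figure D5:**
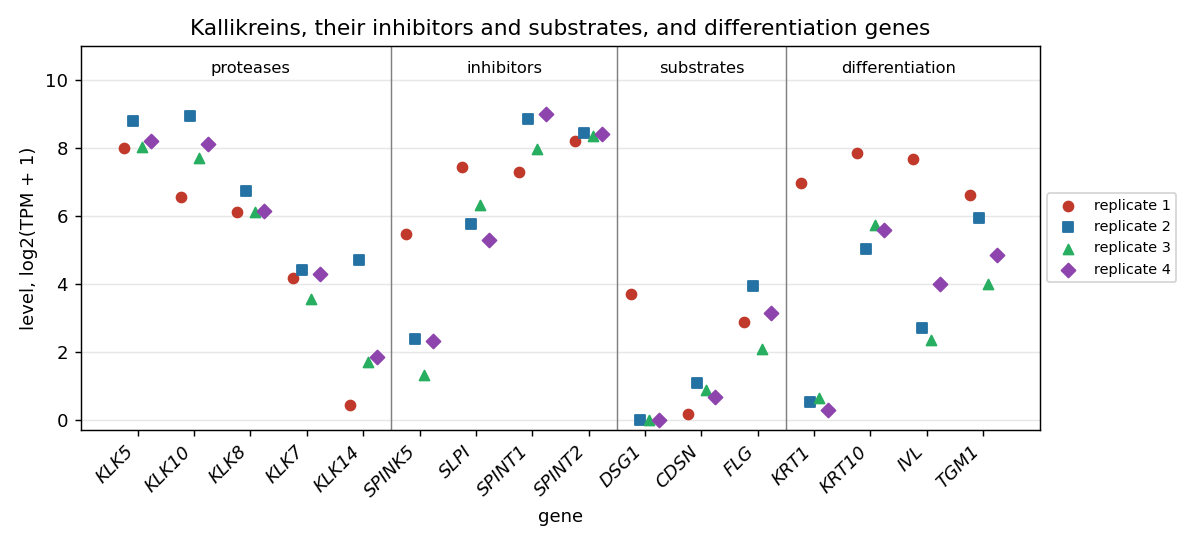
Level on the log2(TPM + 1) scale (vertical axis) of 5 kallikreins, 4 inhibitors, 3 substrates and 4 differentiation genes (horizontal axis) in the 4 HaCaT replicates (points). KLK5, KLK8 and KLK7 vary less between replicates than KLK10 and KLK14, all 5 are highest in replicate 2, and SPINK5, DSG1, KRT1, KRT10 and IVL are highest in replicate 1.

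Several genes of suprabasal differentiation were highest in replicate 1, as SPINK5 was. FLG (filaggrin), a late differentiation gene listed among the substrates, was not: it had 6.36, 14.3, 3.25 and 7.77 TPM, with replicate 2 the highest. KRT1 had 124 TPM in replicate 1 and 0.219 to 0.545 in the others, IVL (involucrin) had 202 against 4.06 to 14.9, and KRT10 had 229 against 31.3 to 52.4. All 6 differentiation markers with a mean TPM above 1 were highest in replicate 1, as were 1 of the 9 detected kallikreins and 40.2% of all genes with a mean TPM above 1. This share is in part set by the filter, since KRT1 and CALML5 passed it only through replicate 1. In the others CALML5 had 0.127 to 1.84 TPM, with a mean just under 1. Below the limit, LOR and TGM3 were highest in replicate 4, SPRR2D in replicate 2 and SBSN in replicate 1. Of the 10 keratinocyte markers, 5 were highest there too, among them the basal genes ITGA6 (1022 TPM against 113 to 294) and KRT5 (5396 against 1920 to 3000). The 10 differentiation markers summed to 754 TPM in replicate 1 and 75.6 to 126 in the others. The part of differentiation, GC content, depth or protein-coding share of the library in the differences between replicate 1 and the others was not tested. These cannot be told apart here.

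The labelled cell type was checked against its markers. KRT14 had 6375 to 7642 TPM and KRT5 1920 to 5396 TPM. All 10 keratinocyte markers were detected, as were 63.3% of all protein-coding genes. Keratins of simple and glandular epithelium were high too, and the 6 genes of that list summed to 6991 to 8246 TPM, while SCGB2A2 and AQP5 were at 0. Markers of other cells were low in sum: 3.97 to 9.12 TPM for 6 melanocyte genes with TYR at 0, 5.20 to 9.70 for 7 fibroblast genes and 0.859 to 2.36 for 4 endothelial genes with PECAM1 and KDR at 0. The 6 immune genes summed to 8.42, 43.9, 38.2 and 16.1 TPM in replicates 1 to 4, nearly all of it CD68, while PTPRC had 3 counts in replicate 1 and 0 in the others. Replicate 2 was thus highest in this sum as well as in the kallikreins, and its defining gene PTPRC was at 0 there; a part of other cells in the kallikrein levels was not tested further.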

How the data were processed

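RNA was extracted with Trizol and sequenced with Illumina libraries from 4 replicates of untreated HaCaT cells. The authors deposited raw counts per gene and a gene length for each replicate, with RPKM for replicates 1 and 2 and TPM for replicates 3 and 4. The submitters' notes name HISAT2, TopHat2, Bowtie2, HISAT and hg19; the counting program and annotation are not given in the sources used here. The deposited RPKM and TPM were within 0.1% of values recomputed from the counts and lengths (100% of values above 0) and were used only for this check.

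TPM was computed over protein-coding genes in all 4 replicates. A mean TPM above 1 was taken as detected, and counts of 3 or fewer as at the limit of detection. Differences between neighbouring members on the log2(TPM + 1) scale, which understates folds of low genes, were compared by exact permutation tests (sign flips, two-sided). Total counts were 73082279, 17056035, 19745170 and 19083836 in replicates 1 to 4. Named were all members, the genes of fixed lists (CTSL1 and CTSL2, older names, were absent), genes within 100 kb of the cluster or overlapping it, and the 3 genes most like each of the 2 highest members. The members and lists were chosen with earlier results of these data known. GC content and alternative lengths came from GENCODE release 29, matched by symbol for 97.7% of detected genes. The statistics were tested on simulated libraries that differed by depth, random noise and a set of raised genes. The simulation held no GC trend like that of replicate 1, so it does not cover such differences between libraries. Alternatives were the scaling, the length, the pseudocount, the detection limit and leaving out each replicate. The software was SciPy 1.17.1, pandas 2.3.3, matplotlib 3.10.9 and NumPy 2.4.6 under Python 3.11.15.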

Additional observations from a re-analysis of the deposited data

Results flagged for a closer look

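Dixon's test for an outlying value was run on TPM, not on log2(TPM + 1), in 50 sets of 4 replicate values. Each detected gene of the lists on kallikreins, their partners and differentiation gave 1 set. The sum of each list, cell type markers included, gave 1 as well. In 11 sets 1 replicate lay beyond the 95% limit, where chance gives 1 in 20, or 2.5. Of all genes with a mean TPM above 1, 9.82% passed this limit in these libraries. The sets share libraries and genes and are not independent. Of the 11, 9 were in replicate 1 and 2 in replicate 2. DSG1, KRT1 and CALML5 counted as detected only through replicate 1, the replicate flagged for them. In replicates 2 to 4 DSG1 had 0 TPM and KRT1 had 0.219 to 0.545 TPM. CALML5 had 0.127 to 1.84 TPM there, with a mean just under the limit of 1. The 11 sets, and the 9 in replicate 1, are in part set by this filter and are not a plain count against 2.5. The 9.82% of all genes rests on the same filter. The gap to the nearest replicate is given as a share of the range.

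KLK8 (gap 0.939) and KLK14 (0.911) were high in replicate 2. KLK8 had 105 TPM there against 68.0 to 70.3 in the others, and KLK14 had 25.1 against 0.353 to 2.56, from 175 counts against 9 to 21.

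In replicate 1 the high genes were SPINK5 (0.935), DSG1 (1.00), KRT1 (0.997), KRT10 (0.894), IVL (0.945), CALML5 (0.944) and CTSV (0.886), and the sum of the differentiation markers was high as well (0.926). CALML5, a calmodulin-like protein of differentiated keratinocytes, had 30.5 TPM there against 0.127 to 1.84 in the others. ST14 was low (0.875), with 242 TPM against 451 to 481. No explanation of these values was tested.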

How the results depend on the processing

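Of 207 values under alternatives, 193 kept their direction and their side of the test's threshold, or stayed within the limits set for values without a test. KLK5 minus KLK10 reversed to -0.64 in counts scaled by the library total without length correction. KLK7 minus KLK13 reversed to -0.90 with the longest protein-coding transcript as the length and to -0.80 with the exons of protein-coding transcripts, both lengths chosen after seeing the data. With both lengths KLK13 also exceeded KLK11 by mean TPM, a pair whose difference was not among the 207 values. In TPM over all genes, 7 members in place of 4 had a highest level over 4 times the lowest, and 1 in place of 2 had a replicate beyond Dixon's limit, a scaling in which protein-coding genes make up less of replicate 1 than of the others. Mean levels of single members moved by more than 1 SD over the replicates, the limit set for levels, in 9 of 90 values. Leaving out 1 of 4 replicates cannot move a mean that far. The mean and summed levels under those settings therefore had to count as unchanged and say nothing about stability. Leaving out replicate 2 took KLK14 from 7.57 to 1.71 TPM. No paired analysis was possible because there is only 1 group. With 4 replicates no exact test could reach 0.05, so the p-values say nothing about stability. The depth limits KLK12.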
